A study of Mus musculus with 14 samples.

Results

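RNF2 sites deep inside genes were the peaks of the second wild-type RNF2 ChIP-seq library that lay within the span of a protein-coding gene and more than 20 kb from both ends of every protein-coding gene they overlapped. On chromosomes 1 to 19, X and Y, 2045 of the 28770 peaks of that library met this rule, or 7.11% (95% Wilson interval 6.82 to 7.41), and the 7 ChIP lists of the study together held 83165 peaks. The members were chosen by position, with no measured value beyond being called as a peak. ChIP-seq sequences the DNA that an antibody brings down with a protein, and a peak is a stretch where the library exceeds its input, the same chromatin without the antibody.

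The cells were mouse embryonic stem cells (ESC) of a C57BL/6 background, labelled as E3.5-4.5 days. Every library, the wild type included, came from cells kept for 4 days in 100 nM 4-OHT (4-hydroxytamoxifen, used to activate tamoxifen-dependent Cre recombinases) and 10 µM emricasan, a caspase inhibitor. The groups were RNF2 ChIP in BAP1 knockout cells (2 libraries), RNF2 ChIP in RNF2 knockout cells (1 library), RNF2 ChIP in wild-type cells (2 libraries), BAP1 ChIP in cells with the catalytic mutant BAP1-C91A (1 library) and BAP1 ChIP in BAP1 knockout cells (1 library), each with its own input. The protocols write the mutant cells as Bap1C91A/-, 1 mutant allele over a null allele, and these cells were also crosslinked with disuccinimidyl glutarate. The labels do not say whether libraries of 1 genotype came from separate cultures.

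RNF2, also called RING1B, is the ubiquitin ligase of Polycomb repressive complex 1 (PRC1), which places ubiquitin on histone H2A and is known in embryonic stem cells for holding developmental genes silent. BAP1, with its ASXL partners, is the deubiquitinase that removes that ubiquitin, and the C91A form lacks the catalytic cysteine. In mammals PRC1 is known mostly from promoters rich in CG dinucleotides, to which the variant complex with KDM2B and BCOR can be brought by the CG-binding zinc finger of KDM2B.

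The start windows of a few host genes show one kind of position that members overlapped, an alternative start far inside the gene. Of the 402 members in the strongest quartile of fold enrichment, 136 lay within 1 kb of a start of their host gene and 210 had no annotated start or gene end that close. The sequences run 5′ to 3′ on the strand of the gene, from 250 bases before to 50 bases after a start annotated by RefSeq on GRCm38.p6, with CG in capitals. Fgf12 encodes an intracellular fibroblast growth factor homologue that binds sodium channels, and its window at chr16:28446026-28446325 on the minus strand held 22 CG. Runx3 encodes a Runt-domain transcription factor, and its window at chr4:135152295-135152594 on the plus strand held 45 CG. The windows of Gabra5 and Tenm4, also among the 12 members with the highest fold enrichment, held fewer, 13 and 12.
Fgf12 start overlapped by a member: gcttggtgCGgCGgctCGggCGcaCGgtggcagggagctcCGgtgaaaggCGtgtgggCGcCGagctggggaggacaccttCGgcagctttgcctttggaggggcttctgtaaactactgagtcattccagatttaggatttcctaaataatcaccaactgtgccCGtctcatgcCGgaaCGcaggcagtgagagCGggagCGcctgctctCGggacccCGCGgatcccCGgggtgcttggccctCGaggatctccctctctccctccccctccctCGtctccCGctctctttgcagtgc
Runx3 start overlapped by a member: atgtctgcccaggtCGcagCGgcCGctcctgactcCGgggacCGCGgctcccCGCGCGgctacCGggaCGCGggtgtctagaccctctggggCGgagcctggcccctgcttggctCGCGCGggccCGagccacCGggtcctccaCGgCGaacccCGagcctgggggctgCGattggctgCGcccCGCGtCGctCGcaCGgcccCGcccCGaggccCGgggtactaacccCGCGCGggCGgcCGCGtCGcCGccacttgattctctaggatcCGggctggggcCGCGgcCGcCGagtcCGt
The next pairs set an overlapped start beside another deep start of the same gene that no peak of that list reached. In Slc4a4, a sodium bicarbonate cotransporter gene, the overlapped window at chr5:88887010-88887309 on the plus strand held 50 CG, and the other, at chr5:89027716-89028015 on the plus strand, held 3.
Slc4a4 start overlapped by a member: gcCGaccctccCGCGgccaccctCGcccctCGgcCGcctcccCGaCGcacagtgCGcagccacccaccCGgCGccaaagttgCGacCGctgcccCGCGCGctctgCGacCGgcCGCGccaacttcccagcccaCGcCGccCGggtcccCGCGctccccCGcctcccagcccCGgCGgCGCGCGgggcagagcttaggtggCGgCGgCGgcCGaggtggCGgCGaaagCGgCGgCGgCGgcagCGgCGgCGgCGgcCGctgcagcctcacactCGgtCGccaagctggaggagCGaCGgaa
Slc4a4 start without a peak: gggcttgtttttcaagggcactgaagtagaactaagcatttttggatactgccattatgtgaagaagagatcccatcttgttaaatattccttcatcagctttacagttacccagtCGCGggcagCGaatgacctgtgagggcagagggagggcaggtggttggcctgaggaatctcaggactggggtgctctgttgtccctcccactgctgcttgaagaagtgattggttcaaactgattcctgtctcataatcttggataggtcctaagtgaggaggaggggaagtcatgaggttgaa
Crybg1, a crystallin-domain gene, gave a pair that did not differ much in this way. Its overlapped window at chr10:44004797-44005096 on the minus strand held 5 CG, and the window without a peak, at chr10:44022226-44022525 on the minus strand, held 3.
Crybg1 start overlapped by a member: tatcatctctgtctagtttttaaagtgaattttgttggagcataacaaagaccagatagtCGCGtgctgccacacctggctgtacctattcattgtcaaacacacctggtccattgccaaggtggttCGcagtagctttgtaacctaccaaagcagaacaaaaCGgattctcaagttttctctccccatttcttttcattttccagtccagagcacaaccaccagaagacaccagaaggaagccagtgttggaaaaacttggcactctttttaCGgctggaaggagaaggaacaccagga
Crybg1 start without a peak: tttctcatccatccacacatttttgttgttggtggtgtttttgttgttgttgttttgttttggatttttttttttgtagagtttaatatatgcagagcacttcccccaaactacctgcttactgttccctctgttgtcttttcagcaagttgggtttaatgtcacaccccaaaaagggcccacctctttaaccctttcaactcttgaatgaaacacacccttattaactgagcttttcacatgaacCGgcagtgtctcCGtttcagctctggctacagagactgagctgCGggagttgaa

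Sequencing depth differed widely between libraries. The second BAP1 knockout and second wild-type RNF2 libraries had 138705841 and 149284514 tags, and the first ones had 54133023 and 58442959. The RNF2 knockout library had 119322393 tags and no peak, the C91A library 414814002 and the BAP1 ChIP in BAP1 knockout cells 32546894. First and second RNF2 libraries were also called with different program versions and fragment lengths, so depth, calling and library cannot be told apart, and values of first and second lists are set side by side without a comparison. The second RNF2 libraries had no pileup above 200 tags. That ceiling was reached by 9 members and 512 of all peaks of the second wild-type list, so the order of the strongest members was not resolved. Near the ceiling, the fold enrichments of the second lists also cannot show a difference between genotypes above it. Gene ends of the 6 embryonic stem cell marker genes examined (Pou5f1, Sox2, Nanog, Esrrb, Zfp42 and Klf4) had RNF2 peaks for 4 and 0 genes in the second and first BAP1 knockout lists, and for 2 and 0 genes in the second and first wild-type lists. All 4 primitive endoderm markers examined (Gata4, Gata6, Sox17 and Pdgfra) had one in each of these 4 lists. Of 5 trophoblast markers, 4 had one in both knockout lists and the second wild-type list, and 3 in the first wild-type list. Of 5 fibroblast markers, 4 had one in each second list and 2 in each first list. Peak lists hold no expression, so the labelled cell type could be read no further than this.

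Most members were short and weak, and a minority were among the peaks of high fold enrichment. The authors' fold enrichment over input had a median of 3.04 for members (quartiles 2.67 and 4.01) against 3.23 for all other peaks of the list (quartiles 2.71 and 4.68). Both reached 22.4. Median length was 236 bp for members (quartiles 138 and 653) and 283 bp for all other peaks (quartiles 152 and 856). The authors' −log10 q had a median of 5.33 for members and 6.24 for all other peaks. Members resembled the 5986 other peaks inside genes and the 6975 intergenic peaks, both with a median fold enrichment of 3.01, and lay below the 13764 peaks within 1 kb of a protein-coding gene end, with 3.55. Ranked over the whole list, 402 members (19.7%) fell in the strongest quartile, with a fold enrichment of at least 4.67, against 25.4% of all other peaks.

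RNF2 peaks were sparse in gene interiors. The deep interiors of genes covered 594 Mb and held 3.44 peaks per Mb, against 15.2 per Mb in the remaining 394 Mb of gene spans and 175 per Mb in the 78.9 Mb within 1 kb of gene ends. Under the same rule, the share of peaks deep inside genes was 8.18% (7.91 to 8.45; 3261 of 39872) in the second BAP1 knockout list, against 7.11% (6.82 to 7.41; 2045 of 28770) in the second wild-type list. In the first pair it was 5.44% (4.96 to 5.96; 432 of 7946) in the BAP1 knockout list, against 4.73% (4.12 to 5.43; 191 of 4038) in the wild-type list. The intervals were apart in the second pair and overlapped in the first, and they cover counting error within 1 list. In both pairs the knockout list was the longer one. At a −log10 q of at least 10 the shares of the second pair were lower and nearer each other. They were 6.42% of 15443 peaks in the BAP1 knockout list and 5.88% of 9686 in the wild-type list. The order in the first pair turned with the distance: beyond 50 kb the share was 2.68% in the first BAP1 knockout list and 2.72% in the first wild-type list, and beyond 100 kb 1.13% and 1.51%. The C91A BAP1 list had 50 such peaks of 2395, or 2.09% (1.59 to 2.74), and the BAP1 ChIP in BAP1 knockout cells had 14 of 144, or 9.72% (5.88 to 15.7).

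Most members were also called in BAP1 knockout cells. The second BAP1 knockout list overlapped 1642 of the 2045 members by at least 1 bp, or 80.3% (78.5 to 82.0), where it overlapped 86.3% of all peaks of the second wild-type list. The first BAP1 knockout list overlapped 425 members, 20.8% (19.1 to 22.6), where the share over all peaks was 27.3%. The first wild-type list overlapped 148 members, 7.24% (6.19 to 8.44), where the share over all peaks was 11.2%. All 425 members in the first BAP1 knockout list were in the second as well. The RNF2 knockout library had no peak, so it overlapped 0% of all peaks and none of the members. No other list overlapped 401 members, or 19.6% (17.9 to 21.4), against 13.2% (12.8 to 13.6) of all other peaks. Members lay below the share over all peaks in each of the 3 RNF2 lists with peaks.

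**Figure D1:**
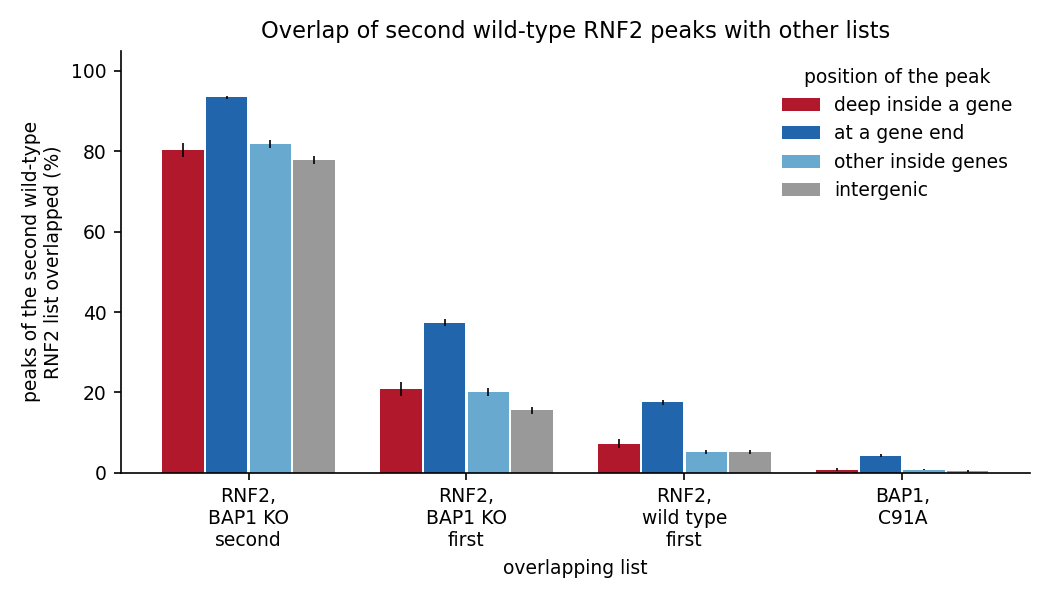
Share of second wild-type RNF2 peaks (y axis, percent) overlapped by 4 other lists, for peaks deep inside genes (2045), at gene ends (13764), elsewhere inside genes (5986) and intergenic (6975), with 95% Wilson intervals. Gene-end peaks have the tallest bar in each of the 4 lists, and peaks deep inside genes lie close to the other non-end classes.

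The gap was to the peaks at gene ends rather than to the other classes. The second BAP1 knockout list overlapped 93.4% of gene-end peaks, 81.9% of other peaks inside genes and 77.8% of intergenic peaks. The first BAP1 knockout list overlapped 37.3%, 20.1% and 15.6% of the same classes, and the first wild-type list 17.5%, 5.21% and 5.15%. With 7.24% in the first wild-type list, members were slightly above the non-end classes, and their interval (6.19 to 8.44) did not reach either value. The plot of overlap by peak position shows the 4 classes side by side.

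Strength moved with overlap, so members were set beside other peaks of the same quartile of fold enrichment. The other peaks included the 13764 gene-end peaks. Members were not set against the other non-end classes within a quartile, so a gap here cannot be assigned to deep peaks in particular. In the second BAP1 knockout list, overlap was 64.9% of members (61.0 to 68.6) and 74.2% of all other peaks (73.1 to 75.2) in the weakest quartile. It was 74.7% of members and 79.6% of other peaks in the next quartile, then 89.1% and 92.9%. In the strongest quartile it was 402 of 402 members and 99.9% of other peaks. The first BAP1 knockout list overlapped 4.20%, 6.32%, 13.4% and 74.4% of members from the weakest to the strongest quartile, against 5.83%, 7.50%, 16.8% and 79.8% of other peaks. In the strongest quartile the first wild-type list overlapped 34.8% of members (30.3 to 39.6) and 44.1% of other peaks (42.9 to 45.3). In the weaker quartiles its shares were small and not lower for members, at 0.168%, 0.181% and 1.21% of members against 0.123%, 0.178% and 0.956% of other peaks. In the knockout lists, the members' shares lay below those of other peaks in every quartile of the first knockout list and in the weakest 3 of the second, where the intervals were apart.

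**Figure D2:**
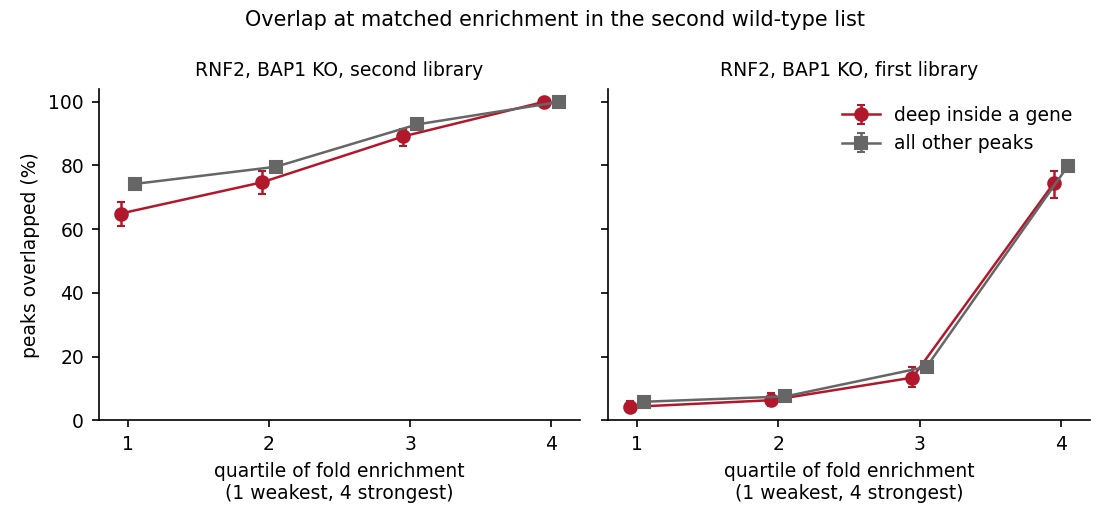
Share of second wild-type RNF2 peaks (y axis, percent) overlapped by the second (left) and first (right) BAP1 knockout lists, by quartile of fold enrichment over the whole list (x axis), for peaks deep inside genes and all other peaks, with 95% Wilson intervals. Both lines climb with enrichment, to 402 of 402 members in the second knockout list and 74.4% in the first.

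The 4 RNF2 lists split the members into few patterns. Overlap with the second BAP1 knockout list alone was the commonest, with 1211 members (59.2%), a median fold enrichment of 3.01 and a highest value of 11.2. Overlap with none of the other 3 lists was next, with 403 members (19.7%), a median of 2.68 and none above 4.41. Both knockout lists but not the first wild-type list overlapped 283 members (13.8%, median 5.10), and all 4 lists shared 142 (6.94%, median 15.5; 10.8% of all peaks of the list were shared in this way). The remaining 6 members were in the first wild-type and second knockout lists. Enrichment in the second wild-type library thus ordered the patterns.

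The 12 members with the highest fold enrichment, between 21.7 and 22.4, lay in 12 genes, and each was called in all 4 RNF2 lists. For each other list, the value is the highest fold enrichment among its overlapping peaks, and values of different lists are not on 1 scale. The longest member of all lay in Zdbf2, an imprinted gene, at chr1:63254512-63278628 and spanned 24117 bp over a start of the gene. Its fold enrichment was 21.1 and 16.2 in the second and first BAP1 knockout lists, 22.4 and 10.9 in the second and first wild-type lists, and 4.60 in the C91A BAP1 list. Fgf12, whose start window is shown above, had a member of 4858 bp, 285739 bp inside the gene. There, fold enrichment was 22.1 and 15 in the BAP1 knockout lists, second before first, and 22.3 and 7.30 in the wild-type lists. The Runx3 member covered 7288 bp over the start shown above, with 18.5 and 23.7 in the second and first knockout lists and 22.3 and 6.81 in the second and first wild-type lists. All 3 covered an alternative start of the gene they lay in.

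Kcnk2, Gabra5, Tenm4, Ptprd and Apba1 were also among the 12. Kcnk2, a background potassium channel gene, had 22.5 and 14.2 in the second and first BAP1 knockout lists, and 22.0 and 7.25 in the second and first wild-type lists. At Gabra5, a GABA-A receptor subunit gene, the values were 23.3 and 10.1 in the second and first knockout lists, against 22.2 and 5.87 in the second and first wild-type lists. Tenm4, a teneurin adhesion gene, had 22.3 and 16.4 in the knockout lists and 22.2 and 6.24 in the wild-type lists, in the same order. These 3 members also lay within 1 kb of a start of their own gene. Ptprd, a receptor tyrosine phosphatase gene, had 20.8 and 12.5 in the second and first knockout lists and 22.2 and 8.47 in the second and first wild-type lists, at the end of a nested gene. Apba1, which encodes a neuronal adaptor protein, had 18.5 and 10.2 in the second and first knockout lists, against 22.2 and 5.46 in the second and first wild-type lists. In each of these genes all 4 RNF2 lists had a peak over the member.

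Further genes among the 12 were Bcor, Nfia and Arhgef4. Bcor, which encodes a corepressor of the variant PRC1 described above, held a member of 19674 bp at chrX:12075578-12095251, at the end of a nested gene. Its fold enrichment was 23.6 and 21.9 in the second and first BAP1 knockout lists and 22.3 and 13.2 in the second and first wild-type lists. Nfia, a nuclear factor I transcription factor gene, held strong members about an end of a nested gene. The one at chr4:97771418-97781035 had 23.1 and 29.7 in the second and first knockout lists, 20.4 and 16.7 in the second and first wild-type lists, and 4.99 in the C91A BAP1 list, the highest of any member there. The other, at chr4:97750739-97755090, had 23.0 and 15.9 in the knockout lists, 21.7 and 8.47 in the wild-type lists and no C91A peak. Arhgef4, a guanine nucleotide exchange factor gene, had 16.9 and 14.1 in the second and first knockout lists, against 22.4 and 5.19 in the second and first wild-type lists. Its member was away from any annotated start.

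Ordering the members by the first wild-type list added Pde10a, Runx2, Crybg1, a further Zdbf2 member and Dock2. Pde10a, a phosphodiesterase gene, had 11.7 and 25.8 in the second and first BAP1 knockout lists, 19.7 and 16.5 in the second and first wild-type lists and 3.91 in the C91A BAP1 list. Runx2, the gene of a transcription factor of bone formation, had 18.6 and 20.2 in the knockout lists, 16.7 and 13.0 in the wild-type lists and 4.68 in the C91A list. The Crybg1 member, over the CG-poor start shown above, had 17.1 and 23.4 in the second and first knockout lists. It had 20.6 and 11.6 in the second and first wild-type lists. Its C91A value was 3.83, from a peak elsewhere in the member, as no C91A peak overlapped that start window. The further Zdbf2 member, of 6615 bp, had 22.9 and 16.7 in the second and first knockout lists, against 21.4 and 10.8 in the second and first wild-type lists. Dock2, a guanine nucleotide exchange factor gene of blood cells, stood apart: a member of 489 bp had 4.02 and 5.84 in the second and first knockout lists, and 3.61 and 9.82 in the second and first wild-type lists. It was the one member of these 8 with a low fold enrichment in both second lists. Its pileup in the second wild-type list was 129 tags and its −log10 q 31.7, above the members' upper quartile of 11.5.

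The strongest members without a peak in the second BAP1 knockout list were weaker than those. Tet3, a gene of 5-methylcytosine oxidation, held 2 of the 5, with wild-type fold enrichments of 4.41 and 3.90. The others lay in Trio, Trp73 and Foxn3, at 4.23, 4.00 and 3.92. Trio encodes a guanine nucleotide exchange factor, Trp73 a relative of p53 and Foxn3 a forkhead factor. None of the 5 was in either first RNF2 list. All 5 were below the strongest quartile of the list, in which each member had a second knockout peak.

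Very few members overlapped a called BAP1 peak. The 1 C91A library had a highest pileup of 46.6, and 24 of its 2395 peaks had a −log10 q of at least 10. A member without a C91A peak is thus not shown to lack BAP1. The C91A BAP1 list overlapped 13 of 2045 members, 0.636% (0.372 to 1.08), where it overlapped 2.37% of all peaks of the list and 4.29% of gene-end peaks. Seen from the C91A list, 28 of its 50 peaks deep inside genes, or 56.0%, lay on a member. These 28 fell on the same 13 members, so some members held several. The like share over all 2395 C91A peaks was not counted, so the 56.0% has no background. In the strongest quartile the C91A list overlapped 9 of 402 members, 2.24% (1.18 to 4.20), against 6.86% (6.28 to 7.49) of all other peaks. These 9 lay in Nfia, Runx2, Zdbf2, Pde10a, Crybg1, Cacna1c, Stox2, Zfhx3 and Tenm3. Cacna1c, an L-type calcium channel gene, had an RNF2 fold enrichment of 22.1 and 21.6 in the second and first BAP1 knockout lists, 14.5 and 8.0 in the second and first wild-type lists, and a BAP1 fold enrichment of 3.53 in C91A cells. The other 4 were weak RNF2 peaks: Camta1 with a C91A value of 4.06 and a second wild-type RNF2 value of 3.56, both of the Brd3 members (C91A 3.99 and 3.22, RNF2 2.78 and 2.89) and Zfp978 (C91A 2.76, RNF2 2.05). Camta1 encodes a calmodulin-binding transcription activator and Brd3 a bromodomain protein.

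The BAP1 ChIP in BAP1 knockout cells, which lack the protein by their label, overlapped 2 members, 0.0978% (0.0268 to 0.356), where it overlapped 0.0487% of all peaks. They lay where Cmss1 and Filip1l overlap and in Cdk8, with control fold enrichments of 6.04 and 5.07 and second wild-type RNF2 values of 2.38 and 1.45. The Cdk8 member had the lowest RNF2 fold enrichment of all members. Neither was in the C91A list.

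What the annotation placed at the members differed with their strength. Within 1 kb, 352 members (17.2%) had a start of the gene they lay in, 65 (3.18%) a start of another gene and 121 (5.92%) an end of a nested gene of any type, leaving 1507 (73.7%) with none of these. Median fold enrichment was 3.88 at starts of the host gene, 3.34 at starts of another gene, 3.23 at nested gene ends and 2.97 elsewhere, and median length was 581, 382, 295 and 207 bp in the same classes. Of members at a start of their host gene, 136 (38.6%) were in the strongest quartile, against 210 (13.9%) of those with no annotated start or end. Of the 352 at host starts, the second BAP1 knockout list overlapped 331, 94.0% (91.1 to 96.1), against 1149 of 1507, with an interval of 74.0 to 78.3%. In the first BAP1 knockout list the shares were 44.6% (39.5 to 49.8) and 13.7% (12.1 to 15.6). The plot of enrichment by annotated position shows that strong members were present in each class.

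**Figure D3:**
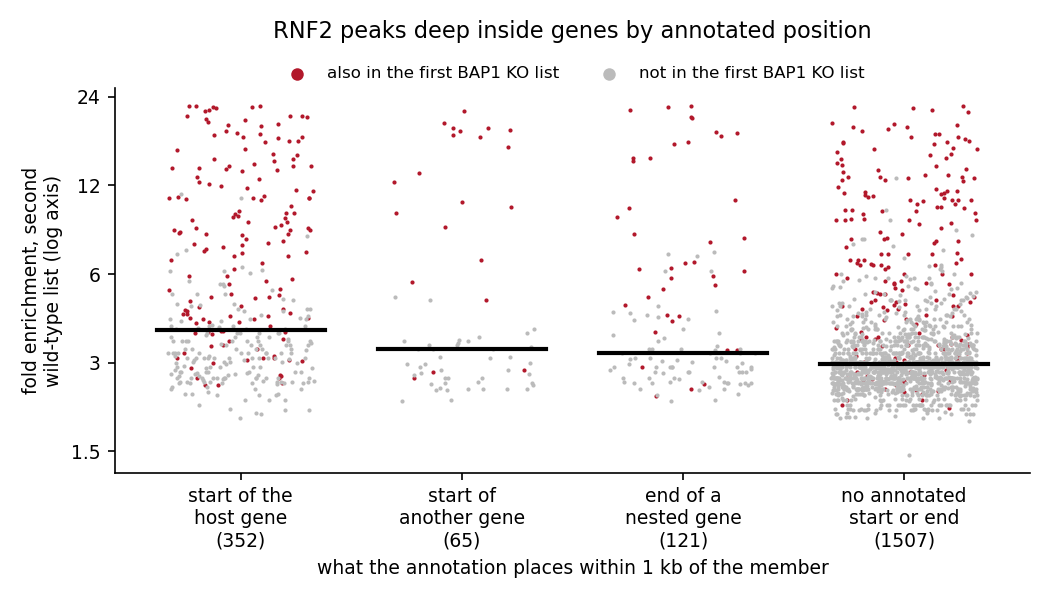
Fold enrichment of the 2045 members in the second wild-type list (y axis, log scale) by what RefSeq places within 1 kb (x axis, number of members below). Each point is 1 member, coloured by overlap with the first BAP1 knockout list, and black bars are medians, which are 3.88, 3.34, 3.23 and 2.97 from left to right.

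At like strength the position classes were apart in part of the quartiles. In the weakest quartile, the second BAP1 knockout list overlapped 77.6% of members at host starts (65.3 to 86.4) and 62.9% of those with no annotated start or end (58.6 to 67.1). In the next it was 88.1% (77.5 to 94.1) against 72.3% (68.0 to 76.3), and in the third 99.0% (94.5 to 99.8) against 85.6% (81.6 to 88.9). In the strongest quartile there was no gap, with 136 of 136 at host starts and 210 of 210 elsewhere. For the first BAP1 knockout list, the strongest quartile had 82.4% (75.1 to 87.8) at host starts against 66.2% (59.6 to 72.2) elsewhere, and the weakest 8.62% (3.74 to 18.6) against 3.26% (2.02 to 5.23). The intervals overlapped in the weakest quartile of both lists.

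Strand is known for hosts with an entry in the table of starts, and 1657 members lay in such a gene. From the 5′ to the 3′ end, 9.47%, 23.9%, 28.7%, 26.3% and 11.6% of them lay in successive 20% steps along the gene, of which the outermost are partly closed by the 20 kb rule. Their summits lay within 1 kb of an annotated start of the host in 340 cases (20.5%), and the median distance to the nearest start was 31414 bp. From the weakest to the strongest quartile that share was 11.4%, 13.4%, 24.2% and 39.0%. Members near their gene's own starts were therefore most frequent among the strongest.

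Read from the starts, CG content went with the presence of a peak. The table held 974 starts deep inside their own protein-coding gene, in 707 genes. The second wild-type list overlapped 267 of them, 27.4% (24.7 to 30.3), where it overlapped 30.2% of all 32851 starts in the table. The 300-base windows of overlapped deep starts held a median of 21.0 CG (quartiles 13 and 31), against 5.00 (quartiles 3 and 7) in those without a peak, and their median GC content was 65.3% against 48.3%. At least 20 CG were present in 57.3% of overlapped deep starts, in 3.96% of the rest and in 26.5% of all starts. The dinucleotide CG was counted on the printed strand, which gives the same number on both.

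Each RNF2 list showed the same order over the CG classes at deep starts. Of starts with 0 to 4, 5 to 9, 10 to 14, 15 to 19 and at least 20 CG, the second BAP1 knockout list overlapped 5.46%, 17.3%, 52.3%, 82.8% and 92.3%. For the second wild-type list these shares were 3.74%, 8.64%, 36.0%, 75.9% and 84.5%. In the first BAP1 knockout list they were 2.01%, 3.99%, 22.1%, 43.1% and 48.1%, and in the first wild-type list 0.862%, 1.33%, 8.14%, 13.8% and 16.6%. The C91A BAP1 list overlapped 5 deep starts in all, 3 of them among the 181 with at least 20 CG. Knockout shares were above wild-type shares in every CG class of both pairs, while the intervals overlapped in most classes, and the knockout lists are the longer ones.

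**Figure D4:**
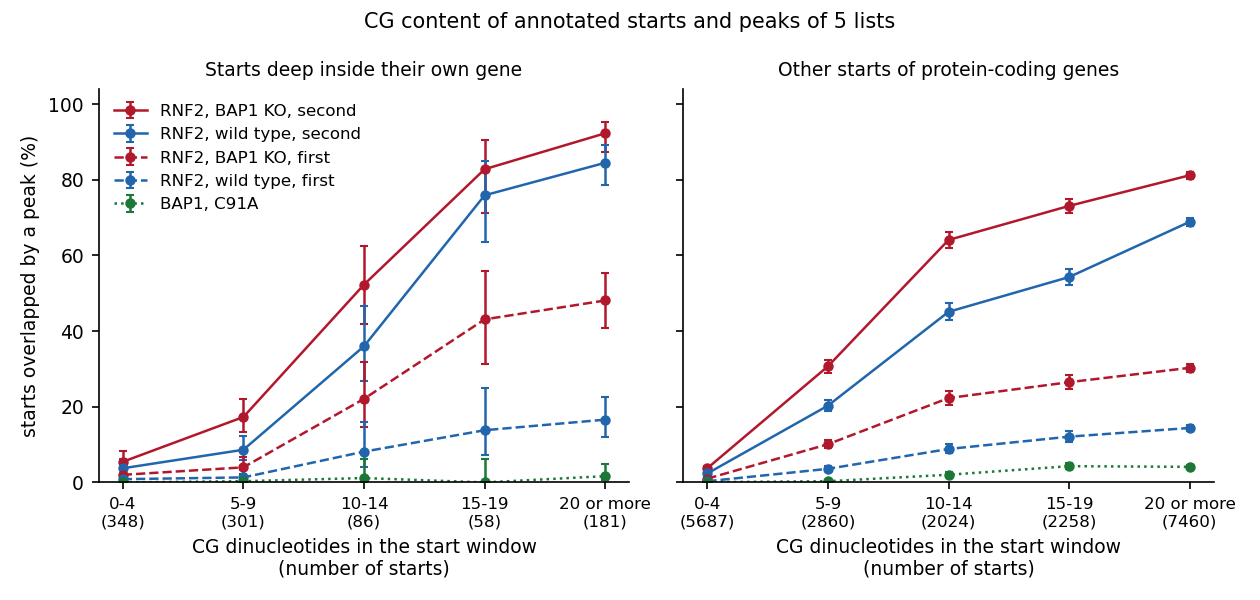
Share of annotated starts overlapped by a peak (y axis, percent) by the number of CG dinucleotides in the 300-base start window (x axis, number of starts in brackets), for starts deep inside their own gene (left) and other starts of protein-coding genes (right), in 4 RNF2 lists and the C91A BAP1 list. Error bars are 95% Wilson intervals, and at 20 or more CG the second wild-type list reaches 84.5% of deep starts and 68.9% of other starts.

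Among starts with at least 20 CG, deep ones were overlapped more often than other starts of protein-coding genes. The second BAP1 knockout list overlapped 92.3% of the 181 deep starts (87.4 to 95.3), against 81.2% of the 7460 other starts (80.3 to 82.1). In the second wild-type list it was 84.5% (78.6 to 89.1) against 68.9% (67.9 to 70.0), and in the first BAP1 knockout list 48.1% (40.9 to 55.3) against 30.3% (29.2 to 31.3). The first wild-type list gave 16.6% (11.9 to 22.7) against 14.4% (13.6 to 15.2), with intervals that overlapped. For the C91A BAP1 list the order was the other way, 1.66% (0.565 to 4.76) against 4.12% (3.69 to 4.59), also with overlapping intervals. At 5 to 9 CG the order was reversed, with 8.64% of deep starts (5.96 to 12.4) and 20.3% of other starts (18.8 to 21.8) in the second wild-type list. At 10 to 14 CG that list overlapped 36.0% (26.7 to 46.6) against 45.1% (43.0 to 47.3), with overlapping intervals. At 15 to 19 CG it was 75.9% (63.5 to 85.0) against 54.3% (52.3 to 56.4). Over all CG classes the same list overlapped 27.4% of deep starts and 39.4% of other starts, so the excess was limited to CG-rich starts. With other distances from the gene ends, chosen after the table of starts was seen, the second wild-type list overlapped 226 of 286 CG-rich starts beyond 10 kb (79.0%), 59 of 64 beyond 50 kb (92.2%) and 20 of 21 beyond 100 kb (95.2%).

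Alternative starts of 1 gene could differ. Of 183 genes with 2 or more deep starts, 56 had some overlapped and some not, 24 had all overlapped and 103 had none. The 5′ end of the gene itself had a second wild-type RNF2 peak within 1 kb in 119 of the 220 genes with an overlapped deep start, 54.1% (47.5 to 60.5). It had one in 63.9% (59.5 to 68.0) of the 487 genes whose deep starts were not overlapped and in 64.3% of all eligible genes with an annotated strand. Starts of other genes, many of them non-coding, that lay deep inside a protein-coding gene numbered 1316. The second wild-type list overlapped 56 of them (4.26%), with a median of 17.0 CG against 3.0 in the rest, and 6 members lay within 1 kb of a microRNA gene.

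Host genes were long. Of 5982 protein-coding genes with sequence more than 20 kb inside, 874 held a member, 14.6% (13.7 to 15.5), with a median span of 152 kb against 76.2 kb in the other eligible genes. The share was 3.02% of genes of 40 to 60 kb, 11.0% of 60 to 100 kb, 20.5% of 100 to 200 kb, 28.8% of 200 to 400 kb and 42.6% above 400 kb. A single member was held by 412 hosts, 2 members by 211 and 3 or more by 251. After merging members within 1 kb of each other, 1337 sites remained, and 16 members overlapped more than 1 gene. Members of 1 gene share their surroundings and are not independent.

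A gene end of the host often had a peak too, about as often as in other genes. Within 1 kb of an end, 607 of 874 hosts had a second wild-type RNF2 peak, 69.5% (66.3 to 72.4), against 65.6% (64.3 to 66.9) of the other eligible genes and 66.2% of all. Above 400 kb the order turned, with 65.3% of 150 hosts (57.4 to 72.5) against 83.7% of the 202 other genes (77.9 to 88.1). Between 60 and 100 kb the shares were 69.6% (62.8 to 75.7) and 64.9% (62.5 to 67.3). The longest hosts thus lacked a peak at both ends more often than the other genes of that length.

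Developmental transcription factor genes held members most often of the lists examined. The lists were chosen with earlier results of these data known, so this ranking is a description and no independent support. Of the 103 genes of this list, 95 were eligible. Of 95 eligible genes of that list, 55 were hosts, or 57.9%, where 14.6% of all eligible genes were, and they held 261 members at 11.3 per Mb, against 3.44 per Mb overall. Their median span was 201 kb, and 28.8% of all eligible genes of 200 to 400 kb were hosts. These 261 members were counted peak by peak, and 47 of them lay in Zfhx3, where they merged into 16 sites. The second BAP1 knockout list overlapped 33 of 47 in Zfhx3, 8 of 20 in Nfix, 7 of 14 in Prdm16 and 3 of 12 in Lmx1b. In Hmga2 it overlapped 11 of 13 and in Tshz2 9 of 13, so a few hosts held many of the members. Over all these hosts, 72.4% of the 261 members were in the second BAP1 knockout list, against 80.3% of all members. Beside Nfia, the strongest was in Tbx5, a T-box gene of heart and limb, where a member of 14217 bp had 23.3 and 14.3 in the second and first BAP1 knockout lists and 18.8 and 8.52 in the second and first wild-type lists. Other hosts of this list were Meis1, Meis2, Pax5, Pax7, Lmx1a, Lmx1b, Runx1 and Tcf4. Auts2, described below as a gene of a variant PRC1 component, was also counted in this list.

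**Figure D5:**
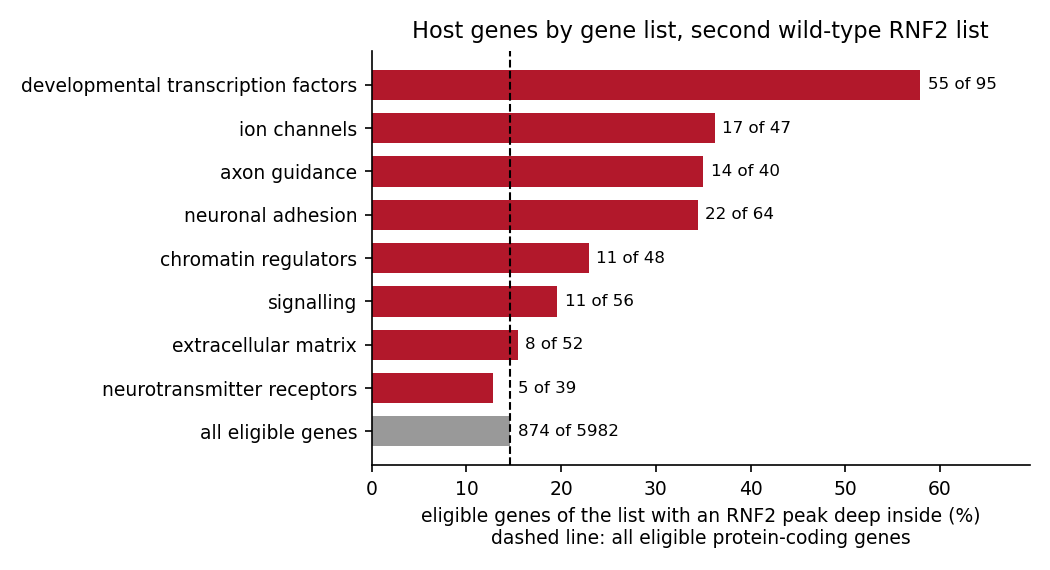
Share of eligible genes of each list that held an RNF2 peak deep inside (x axis, percent) in the second wild-type library, with hosts and eligible genes beside each bar. The dashed line is the share over all 5982 eligible genes, 14.6%, and 55 of 95 developmental transcription factor genes lie at the top.

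Ion channel, axon guidance and neuronal adhesion genes also held members more often than all eligible genes, and neurotransmitter receptor genes did not. Ion channel genes had 17 hosts of 47 (36.2%, median span 280 kb), axon guidance genes 14 of 40 (35.0%, 193 kb) and neuronal adhesion genes 22 of 64 (34.4%, 635 kb). Neurotransmitter receptor genes had 5 of 39 (12.8%, 240 kb). Of all eligible genes, 20.5% were hosts at 100 to 200 kb, 28.8% at 200 to 400 kb and 42.6% above 400 kb. Beside the class of their median length, axon guidance and ion channel genes lay above and adhesion and receptor genes below. Members per Mb were 3.51 for ion channels, 2.17 for axon guidance, 1.08 for adhesion and 0.675 for receptors, against 3.44 for all. Sema6d, a semaphorin gene, had 17.0 and 6.37 in the second and first BAP1 knockout lists and 16.8 and 4.43 in the second and first wild-type lists, away from annotated starts. Strong members at starts of the host included that of Cacna1d, a further L-type calcium channel gene, with 20.1 and 9.38 in the second and first BAP1 knockout lists and 19.4 and 5.15 in the second and first wild-type lists. Robo2, a receptor for Slit guidance cues, had 18.3 and 7.95 in the knockout lists against 14.8 and 3.88 in the wild-type lists. Robo1, its relative, had 15.7 and 3.99 in the knockout lists and 13.9 and 4.03 in the wild-type lists, the second list before the first in each case. The Robo2 and Robo1 members lay 518458 and 382383 bp from the nearest ends of their genes, and all 4 RNF2 lists had a peak there.

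Chromatin regulator genes had 11 hosts of 48 (22.9%), at 8.44 members per Mb. Bcor held 11 of the 47 members of this list and Tet3 12, and both stand out by number. Kdm2b, which encodes the CG-binding subunit described above, had 23.8 and 12.2 in the second and first BAP1 knockout lists, 10.7 in the second wild-type list and no peak in the first. Auts2, a gene of a variant PRC1 component, had 10.9 in the second knockout list and 9.91 in the second wild-type list, and neither first list had a peak there. Cbx7, Phc2 and Pcgf5, genes of PRC1 subunits, were further hosts. Signalling genes had 11 hosts of 56 (19.6%) and extracellular matrix genes 8 of 52 (15.4%), close to the 14.6% of all eligible genes. In the signalling list Fgf13, like Fgf12 an intracellular fibroblast growth factor homologue, had 15.6 and 7.44 in the second and first knockout lists, 18.4 in the second wild-type list and no peak in the first. Dab1, an adaptor of reelin signalling, had 12.9 and 5.84 in the knockout lists against 18 and 5.37 in the wild-type lists. In the matrix list Adamts20, a secreted metalloprotease gene, reached 7.79 in the second wild-type list.

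Few pluripotency and marker genes are long enough to hold a member. Esrrb, a nuclear receptor gene of the pluripotency network, was the 1 host among 4 eligible genes and held 6 members. The strongest of these lay over a start of the gene at chr12:86420638-86424485, with 22.7 and 12.5 in the second and first BAP1 knockout lists and 20.1 and 8.62 in the second and first wild-type lists. Primitive endoderm genes had 3 hosts of 9, Dab2, Col4a1 and Gata4. Dab2, an endocytic adaptor gene, had 11.4 and 3.68 in the knockout lists and 7.66 in the second wild-type list. The trophoblast list had 0 hosts of 1 and the fibroblast list 0 of 3.

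Members clustered in a few genes. Zfhx3, a zinc-finger homeobox gene of 682 kb on chromosome 8, held 47, which merged into 16 sites and covered 33.9 kb. Their fold enrichments ran between 2.16 and 18.8 with a median of 3.01, and 33 of them were in the second BAP1 knockout list, 5 in the first and 4 in the first wild-type list. Gse1 held 31, Chd9 21 and Nfix 20, all 3 on chromosome 8 too, followed by Celf4 with 15 and Prdm16 with 14. Chd9 encodes a chromodomain helicase, Nfix a nuclear factor I protein, Celf4 an RNA-binding protein and Prdm16 a PR-domain transcription factor. Of the 6, Nfix had 8 members of 20 in the second knockout list, Chd9 11 of 21, Prdm16 7 of 14, Gse1 21 of 31 and Celf4 12 of 15. The second knockout list overlapped 80.3% of all members, a share that Celf4 was close to and the rest were below. Hosts with 10 or more members numbered 15 and held 252 members, and chromosome 8 held 220, the most of any chromosome, while the Y held 0.

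Tet3 had 12 members in a stretch of 12.5 kb, of which 2 had a second BAP1 knockout peak. Its members merged into 2 sites, with fold enrichments between 2.43 and 6.70. In Lmx1b, a LIM-homeobox gene, 3 of 12 had such a peak, and in Hmga2, a gene of an AT-hook chromatin protein, 11 of 13. Hosts with many members thus differed among themselves in how many the knockout list overlapped.

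The values on both sides of the 20 kb threshold were as follows. Just inside it were members of Pde4dip at 20008 bp from a gene end with a fold enrichment of 11.0, Zfp217 at 20038 bp with 3.11 and Zfp64 at 20041 bp with 3.41. Just outside were peaks of Col16a1 at 19979 bp with 2.47, Lef1 at 19978 bp with 3.28 and Nfix at 19952 bp with 2.66. All 6 had a peak in the second BAP1 knockout list.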

How the data were processed

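Peak lists of 7 ChIP libraries were used, each called by the authors with MACS2 against its own input and deposited per library, with no pooling. Per the file headers, peaks passed a q-value of 0.05. Reads were aligned with GSNAP to GRCm38, per the submitters' processing notes. MACS2 was version 2.1.0.20150420 for the first RNF2 libraries and both BAP1 libraries and 2.1.1.20160309 for the remaining lists, per the file headers. The deposited columns are pileup (the signal, or tag coverage, at the summit), −log10 p and −log10 q values, fold enrichment (a ratio over the local background) and coordinates with lengths in bp. All are the authors' values, used only within their own list. A list deposited without peaks (RNF2 knockout) was counted as 0 peaks.

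Gene spans came from RefSeq on GRCm38.p6 (108 protein-coding genes placed below 3 Mb on a chromosome other than Y, where the assembly has no sequence, were left out). Starts came from the RefSeq start table, which had an entry for 17492 of 21779 protein-coding genes. A peak counted as deep when it lay, end to end, over 20 kb from both ends of each protein-coding gene it overlapped, and lists were joined by an overlap of at least 1 bp. Where several peaks of a list overlapped a member, the highest fold enrichment was taken. Intervals are 95% Wilson intervals and cover counting error only: peaks of 1 library are not replicates, and with 2 libraries a genotype no test was run. Members were named by rank (the 12 highest in the second wild-type list, the 8 highest by the first wild-type list, the 8 highest by C91A, those with a control peak, the 5 highest with no second knockout peak), by host (the 6 with most members), as the 3 highest of each of 12 gene lists, and as the 3 on each side of the threshold; some of these are not reported here. Members and lists were chosen with earlier results of these data known. Distances, q thresholds, overlap rules, list lengths and left-out libraries were varied. The classification and overlap steps were tested on simulated intervals. Python 3.11.15 with numpy 2.4.6, pandas 2.3.3, scipy 1.17.1 and matplotlib 3.10.9 was used. FLAG ChIP was not analysed here.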

Additional observations from a re-analysis of the deposited data

How the results depend on the processing

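Of 179 values under alternatives, 77 moved by less than their interval or stayed within 1.5 times the count, and 102 moved. The number of members was 2045, and 3081, 906 and 416 beyond 10, 50 and 100 kb. It was 1110 and 570 at a −log10 q of at least 5 and 10, 1225 with genes of any type, 213 with RNF2 lists cut to the shortest, and 1337 with peaks within 1 kb merged. Without the second wild-type library, the rule gave 191 in the first. Hosts were 13.3%, 17.2% and 18.8% of eligible genes beyond 10, 50 and 100 kb, 10.6% and 7.19% at the stricter q values and 9.80% with genes of any type. Among developmental transcription factor genes, hosts were 63.6%, 43.4% and 41.7% beyond 10, 50 and 100 kb. At the stricter q values they were 46.3% and 32.6% of that list, and with genes of any type 45.3%. The median fold enrichment was 3.23 beyond 100 kb, and 3.85 and 5.96 at the stricter q values.

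The second BAP1 knockout list overlapped 87.4% and 95.3% of members at a −log10 q of at least 5 and 10, 73.7% when 50% of the member had to be covered, 89.2% within 1 kb, 73.4% with the second lists at equal length and 73.7% with all RNF2 lists at the shortest. Both knockout lists overlapped 23.0% beyond 50 kb, 32.3% and 44.7% at the stricter q values, 16.6% under 50% coverage, 30.6% within 1 kb and 61.5% at the shortest length. The first wild-type list overlapped 9.71% and 11.8% beyond 50 and 100 kb, 10.9% and 14.6% at the stricter q values, 2.44% under 50% coverage, 10.7% within 1 kb and 60.6% at the shortest length. All 4 lists gave 9.49% and 11.3% beyond 50 and 100 kb, 10.5% and 14% at the stricter q values, 5.80% with genes of any type, 2.25% under 50% coverage, 10.2% within 1 kb and 50.7% at the shortest length. The C91A list gave 1.10% and 1.68% beyond 50 and 100 kb, 0.360% and 0% at the stricter q values, 0.327% with genes of any type, 0.147% under 50% coverage and 4.23% at the shortest length. The cause of these shifts was not tested. Leaving out 1 library at a time, the share in the remaining knockout lists ran between 20.8% and 80.3% and that in all remaining RNF2 lists between 6.94% and 20.8%. The highest values came without the first BAP1 knockout library and without the first wild-type library, so the first libraries set both shares. Without the 6 hosts with most members, chosen after seeing the data, the second knockout share was 81.7%.

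No paired analysis was possible because the results come from no test; the shares of each pair of libraries are set side by side. An absent peak says only that none was called in that list. The ceiling of 200 tags limits the ranking of strong members and the reading of their values in the second lists of both genotypes. Starts come from an incomplete table.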
